A study of Mus musculus with 9 samples.

Results

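Gene expression was described in the wild-type (WT) heart of the mouse pup on postnatal day 1, from the 3 WT libraries among the 9 libraries of a study on Cd36, a scavenger receptor of the cell membrane that imports fatty acids. The members were chosen by their label alone, with no measured value, and the 6 libraries that the labels give as Cd36 knockouts, of the whole animal or of the heart, were left aside. The WT hearts carried no transgene or deletion named in the labels, and had received no treatment that the labels name. Strain, sex and litter are not given, nor whether each library came from a separate animal, so the spread below is that between libraries and may be partly technical. Messenger RNA was captured by its poly-A tail and sequenced as directional libraries. A level is given as FPKM (fragments per kilobase of gene, per unit of library size). FPKM divides the reads of a gene by its length and by a library size, here as set by the authors. Values stand in the order WT 1, WT 2, WT 3, and errors are SD with n = 3.

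The days around birth are known as the period in which the mouse heart exchanges fetal for adult isoforms of its contractile proteins, moves its energy supply from glucose and lactate towards fatty acid oxidation, and loses the ability of its muscle cells to divide. Sarcomere proteins (the actin, myosin and troponin of the contractile unit) and the enzymes of mitochondrial ATP production are the best known products of a heart muscle cell. Atrial and ventricular muscle use different myosin light chains, and the atrium is the main source of the hormone atrial natriuretic peptide.

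The libraries held 19315734, 18135234 and 16556015 reads as recovered from the deposited values, and 12002, 11856 and 12344 genes reached 1 FPKM. In each library 3 reads, the limit that a count of 0 allows, equalled 0.149, 0.168 and 0.163 FPKM for a gene of 1 kb, a limit that covers counting error only. WT 3 was the library least like the others. Across 12099 genes the correlation of log2(FPKM + 1) was 0.987 between WT 2 and WT 1. It was 0.969 between WT 3 and WT 1, and 0.956 between WT 3 and WT 2. The points of these correlations are genes, which are not independent. A gap of at least 2-fold on the same scale separated 117 genes between WT 2 and WT 1, 310 between WT 3 and WT 1, and 698 between WT 3 and WT 2. WT 1 was the middle library for 7146 of the 12099 genes, so WT 2 and WT 3 often stood at opposite ends. Several means are also given without WT 3, which does not make WT 1 and WT 2 the norm. Xist, the RNA that coats the inactive X chromosome in females, was at 19.9, 12.3 and 21.9 FPKM. The Y-linked genes Ddx3y, Eif2s3y, Kdm5d and Uty had no read in any of the 3 libraries. This is the pattern of female tissue in each library, although the labels give no sex.

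The label of the tissue was checked against markers of the cells a dissected pup heart could hold. All 12 cardiomyocyte markers passed 1 FPKM and together took 6.43, 6.09 and 4.70% of the FPKM sum. All 15 endothelial, 12 of 12 fibroblast, 10 of 11 mural (pericyte and smooth muscle) and 10 of 10 epicardial markers also passed, with 0.166 ± 0.00413%, 0.165 ± 0.0300%, 0.186 ± 0.0673% and 0.0173 ± 0.00370% of the sum. The mural gene that did not pass was Tagln, which encodes the smooth muscle protein transgelin (0.897, 1.15 and 0.548 FPKM), although Acta2, the smooth muscle actin, reached 799.6, 801 and 280.3 FPKM. Fetal cardiomyocytes are also known to make Acta2, so its level does not measure smooth muscle alone. Macrophage markers passed for 7 of 10 genes, led by the complement gene C1qb (27.3, 42.5 and 21.1 FPKM). Markers of tissues that lie beside the heart were also examined. None of the 12 T cell and thymocyte markers passed, and Rag2, Cd3d, Cd8a, Ptcra and Themis had no read. Of 8 lung markers 1 passed, Ager (2.87, 3.16 and 6.08 FPKM), while the surfactant gene Sftpc was at 0.335, 0.757 and 0.316 FPKM. Of 7 cartilage markers 2 passed, Comp (2.22, 2.69 and 1.43 FPKM) and Sox9 (1.47, 1.92 and 1.69 FPKM), while the cartilage collagen Col2a1 was at 0.0911, 0.0665 and 0.136 FPKM. Of 9 liver markers 5 passed, led by Ahsg (8.39, 13.1 and 15.5 FPKM) and Alb (2.26, 5.35 and 2.82 FPKM). Of the 15 skeletal muscle markers, 6 passed, all of them highest in WT 2, as were 39.3% of all expressed genes. Among them Ckm (550.2, 644 and 365 FPKM) and Acta1 (78.6, 111 and 53.7 FPKM) are also known heart genes, whereas Tnni2 (3.71, 4.89 and 3.53 FPKM), Tnnt3 (2.25, 3.32 and 2.48 FPKM) and Mylpf (2.66, 3.21 and 1.59 FPKM) encode proteins of the fast skeletal sarcomere. Myod1 and Tnnc2, which define skeletal muscle, had no read. In RNA from a whole organ, fewer cells of a type and less RNA per cell cannot be told apart.

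Of 56748 genes in the table, 12099 had a mean of at least 1 FPKM over the WT libraries, the level used here to call a gene expressed. They included 10701 of 21970 protein-coding genes (48.7%), 571 of 11288 long noncoding RNA (lncRNA) genes and 722 of 1525 transcription factor genes. No read fell on 30433 genes in any WT library. The median expressed gene stood at 5.81 FPKM, 519 genes reached a mean of 100 FPKM and 40 reached 1000 FPKM. A small set of genes held much of the RNA: 174, 174 and 171 genes made up 50% of the FPKM sum, the top 10 held 17.5, 14.9 and 21.5% and the top 100 held 42.5, 41.7 and 43.7%. The same question asked of reads, without division by length, gave 487, 440 and 606 genes for 50%, since long genes then weigh more.

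The most abundant transcripts were those of the mitochondrial genome and of the sarcomere. mt-Co1, a catalytic subunit of cytochrome c oxidase, led the list with 11313, 8978 and 20355 FPKM, and mt-Nd1, a subunit of respiratory complex I, followed with 13044, 10999 and 16090.3 FPKM. Actc1, the cardiac alpha-actin of the thin filament, stood at rank 3 with 10539.6, 10659 and 7097 FPKM and led the nuclear genes. WT 3 had the highest level of both mitochondrial genes and the lowest of Actc1. The ventricular regulatory light chain Myl2 stood at rank 6 with 4425, 5397 and 2074 FPKM, and the ventricular essential light chain Myl3 at rank 8 with 4006, 4914 and 2203 FPKM. Myh6, the alpha myosin heavy chain that is the motor of the adult mouse heart, followed at rank 11 with 3593, 3185 and 2774 FPKM. For these 3 myosin genes WT 3 was lowest, and for Myl2 and Myl3 its level was under that of either other library by more than those differed from each other.

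Among the 30 most abundant genes 27 were protein coding, 8 lay on the mitochondrial genome and 20 were nuclear protein-coding genes. Troponin C (Tnnc1, 2767, 3614 and 1708 FPKM), the calcium sensor of the thin filament, Tnni3 (1824, 2236 and 911 FPKM), its adult inhibitory partner, and Tnnt2 (1748, 1849 and 1315 FPKM), which anchors both to tropomyosin, were all there. So were genes of fuel use and ATP production, among them Fabp3, the heart fatty acid binding protein (3113, 3469 and 1279 FPKM), Slc25a4, which exchanges ADP for ATP across the inner mitochondrial membrane (2472, 2898 and 1632 FPKM), and 2 genes of the catalytic head of ATP synthase, Atp5b (1562, 1617 and 1219 FPKM) and Atp5a1 (1447, 1501 and 1069 FPKM). Hba-a1 (3284, 4536 and 2643 FPKM) and Hbb-bs (2833, 3595 and 2625 FPKM), the adult globins of red blood cells, stood at ranks 9 and 12. Of the 50-base words of its transcripts, Hba-a1 shares 72.3%, chiefly with Hba-a2, and Hbb-bs 53.2%, chiefly with Hbb-bt. The levels and ranks of both are therefore uncertain. The noncoding H19, an imprinted RNA that is silenced in most tissues after birth, was at rank 25 with 1308, 1695 and 1656 FPKM. Nppa, which encodes atrial natriuretic peptide, stood at rank 20 (1606, 2864 and 2255 FPKM) and was lowest in WT 1. Order within the list is loose: for 27 of the 29 pairs of neighbours the ranges over the libraries overlapped. Each library held 26 to 29 of these genes in its own top 30. The mitochondrial tRNA gene mt-Tc is under 300 bases long, where FPKM rests on few starting positions, and 15 of the 30 overlap a gene on the opposite strand. The strand setting of the read counter is not given in the sources used here, so for mt-Nd6 (4048, 3377 and 4364 FPKM), which is encoded on the other strand than mt-Nd5 beside it, reads of RNA antisense to it cannot be told apart from its own.

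**Figure D1:**
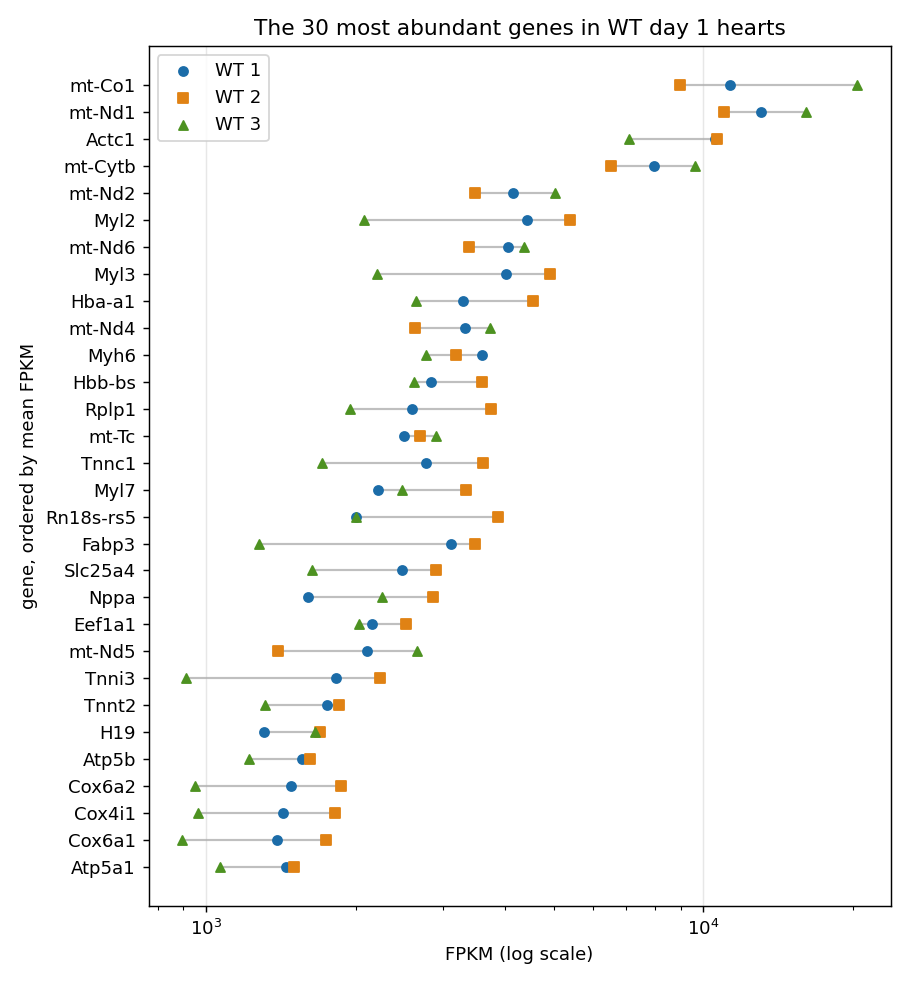
FPKM (log scale) of the 30 genes with the highest mean over the 3 WT libraries, from top to bottom by mean, with 1 point per library (circle WT 1, square WT 2, triangle WT 3) and a line over their range. In the row of mt-Co1 the triangle of WT 3 is the rightmost of the 3 points (20355 FPKM), and in the row of Myl2 it is the leftmost (2074 FPKM).

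Promoter sequence of 8 of the most abundant nuclear genes is shown because the letters TATAA were found in 3 of them, both globins included, and not in the other 5. Each line gives the 60 bases before the transcript start in RefSeq, 5′ to 3′ on the strand of the gene, build GRCm38.p6, and capitals mark the letters TATAA.
Tnnc1, chr14:31208252-31208311, plus strand: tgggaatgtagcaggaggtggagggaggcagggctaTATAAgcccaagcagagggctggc
Hba-a1, chr11:32283612-32283671, plus strand: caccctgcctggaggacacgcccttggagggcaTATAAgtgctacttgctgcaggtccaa
Hbb-bs, chr7:103827929-103827988, minus strand: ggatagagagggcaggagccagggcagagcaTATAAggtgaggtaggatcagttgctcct
Actc1, chr2:114052876-114052935, minus strand: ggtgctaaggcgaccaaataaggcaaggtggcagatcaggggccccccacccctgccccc
Myh6, chr14:54966608-54966667, minus strand: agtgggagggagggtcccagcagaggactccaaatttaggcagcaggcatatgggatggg
Slc25a4, chr8:46211063-46211122, minus strand: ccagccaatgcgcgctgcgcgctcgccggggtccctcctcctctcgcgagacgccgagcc
Rplp0, chr5:115559407-115559466, plus strand: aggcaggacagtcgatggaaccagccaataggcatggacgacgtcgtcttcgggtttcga
Eef1a1, chr9:78481725-78481784, minus strand: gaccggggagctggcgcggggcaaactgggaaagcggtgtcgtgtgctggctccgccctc

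The first T of these letters lay 24, 27 and 29 bases before the start in Tnnc1, Hba-a1 and Hbb-bs. The TATA box is the element to which the TATA-binding protein binds in a minority of promoters. A gene was counted if TATAA stood, on its strand, in the 60 bases of any of its promoter entries. Among the 100 most abundant nuclear protein-coding genes 80 had an entry, and 10 of these were counted (12.5%). The share was 6.11% for those that follow down to rank 1000, and 3.41% for all expressed ones. It was 7.26% over all nuclear protein-coding genes. Over all 32851 promoter entries, counted singly and not by gene, it was 5.57%. By gene, TATAA stood in 4 of 4 expressed haemoglobin genes, 4 of 33 sarcomere genes (12.1%), 5 of 61 ribosomal protein genes (8.20%) and none of 70 nuclear genes for subunits of oxidative phosphorylation. On the opposite strand the same letters stood in 1.25% of the top 100 and 3.34% of all entries. A match is no proof of a site, and its absence says only that these letters are not in this window.

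Among the functional classes examined, the mitochondrial genome took the largest share of the FPKM sum and the sarcomere the largest share of reads. Transcripts of the mitochondrial genome made up 15.1, 11.2 and 21.6% of the FPKM sum (16.0 ± 5.25%; 13.2% without WT 3), but 6.49% of reads, since these genes are short. The 40 listed sarcomere genes held 10.3, 10.4 and 7.83% (9.50 ± 1.44%) and 11.3% of reads. Nuclear subunits of oxidative phosphorylation held 8.62, 9.40 and 6.38%, and cytosolic ribosomal proteins 7.26, 8.71 and 6.43%. Haemoglobins, which red blood cells make, took 1.77, 2.17 and 1.70%. Together with glycolysis and fatty acid oxidation, these classes added to 45.1 ± 0.793% of the FPKM sum. This total varied less between the libraries than its largest parts, which lay in opposite directions. WT 3 was highest for the mitochondrial genome and lowest for the sarcomere, the nuclear subunits and the ribosomal proteins. Protein-coding genes as a whole held 90.7 ± 0.331% of the FPKM sum, pseudogenes 4.41 ± 0.688% and lncRNA genes 1.28 ± 0.162%. Ribosomal RNA of the nuclear genome, which poly-A capture is meant to leave out, was 0.530, 0.914 and 0.580% and was led by Rn18s-rs5 (2001, 3863 and 2001 FPKM), highest in WT 2.

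**Figure D2:**
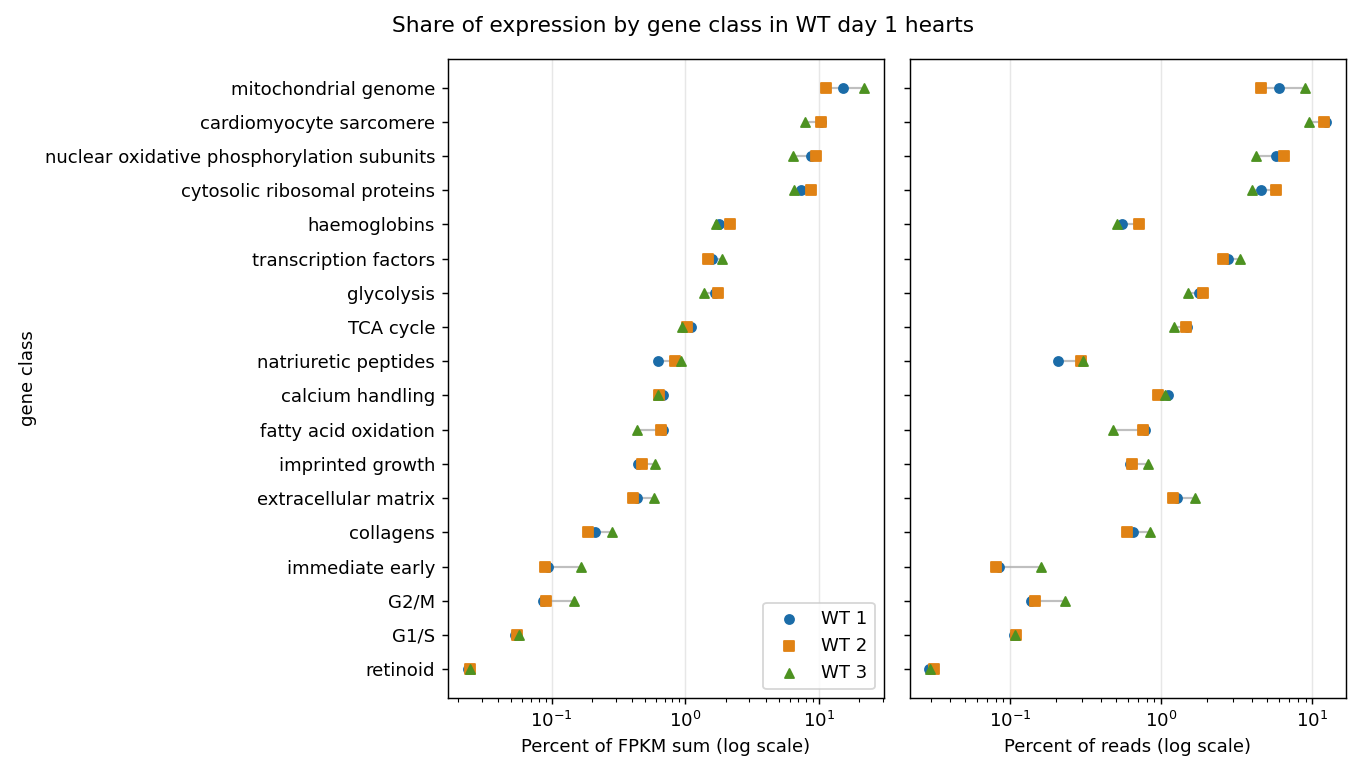
Share of each gene class in each WT library, as percent of the FPKM sum (left) and percent of reads (right), both on log axes, with 1 point per library and a line over the range. The mitochondrial genome leads on the left (16.0% on average) and the sarcomere on the right (11.3%), and WT 3 departs from the other libraries for the mitochondrial genome, fatty acid oxidation, G2/M and immediate early genes.

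The messenger RNAs of the mitochondrial genome were far from equal, although they are known to be cut from long shared precursors. Of the 13, 7 had a mean over 2000 FPKM, while mt-Co2 (1486, 482 and 794 FPKM), mt-Atp6 (176, 221 and 919 FPKM), mt-Nd3 (305, 344 and 199 FPKM), mt-Co3 (215, 199 and 363 FPKM) and mt-Nd4l (34.2, 31.6 and 32.1 FPKM) lay lower. These 5 share at least 98.0% of their 50-base words with another annotated gene, a nuclear pseudogene on chromosome 1, whereas the other 8 share at most 62.2%. The copies carried reads too: Gm28661, the copy of mt-Co2, was listed at 390.3, 1930.0 and 451 FPKM, and was above mt-Co2 in WT 2 alone. In reads, mt-Co2 took 79.3, 20.0 and 63.9% of the sum of both. How the counter divided reads between such copies is not given in the sources used here, so the levels of these 5 genes are uncertain. mt-Atp8, which overlaps mt-Atp6 in part, was lowest of the 13 (7.04, 4.11 and 7.21 FPKM). mt-Cytb, the cytochrome of complex III, shares none of its words and held 7958, 6528 and 9607 FPKM. mt-Co1, first by mean, shares 51.1% of its words, chiefly with Gm29216. In reads mt-Co1 took 99.6, 98.0 and 99.5% of the sum of both. How far shared words alter its level was not tested.

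For the sarcomere, the adult or cardiac form exceeded its fetal, skeletal or smooth muscle paralogue in all 6 pairs examined and in every library. Myh7, the beta heavy chain of the fetal ventricle, had 542, 429 and 543 FPKM against 3593, 3185 and 2774 FPKM of Myh6, a ratio of 0.151, 0.135 and 0.196 (0.160 ± 0.0317), and Myh6 made up 85.2 ± 2.33% of the FPKM of 8 myosin heavy chain genes. Tnni1, the slow skeletal troponin I that is the fetal form in heart, stood at 778, 1001 and 493 FPKM, or 0.426, 0.448 and 0.541 of Tnni3. This fetal form held 31.9 ± 2.74% of the FPKM of 3 troponin I genes. The skeletal actin Acta1 was 0.00848 ± 0.00166 of Actc1 and the slow skeletal troponin T Tnnt1 0.0219 ± 0.00298 of Tnnt2. The smooth muscle actin Acta2 was 0.0759, 0.0751 and 0.0395 of Actc1, with WT 3 far below the other libraries, which nearly coincided (mean 0.0755 without WT 3). The skeletal tropomyosin Tpm2 was 0.0706 ± 0.0149 of Tpm1. Mybpc3, the cardiac myosin binding protein C, took 99.6 ± 0.0346% of its family and Actn2, the alpha-actinin of the Z-disc, 93.4 ± 0.581%. Ttn, the giant molecular spring of the sarcomere, reached 17.3, 8.79 and 17.3 FPKM.

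The ratio of atrial to ventricular light chains depended on the library. Myl7, the atrial regulatory light chain, had 2215, 3332 and 2475 FPKM, and Myl7 over Myl2 came to 0.501, 0.617 and 1.19, so that the atrial form exceeded the ventricular form in WT 3 alone. The mean was 0.770 ± 0.371, and 0.559 without WT 3. The essential light chains kept the same order of libraries, with Myl4 over Myl3 at 0.0745, 0.105 and 0.170 (mean 0.0899 without WT 3). Sarcolipin (Sln), the atrial inhibitor of the calcium pump, over phospholamban (Pln), the ventricular one, was 0.402, 0.709 and 0.724. Of the 15 expressed genes of the atrial list, 13 were lowest in WT 1, and of the 10 ventricular genes 6 were lowest in WT 3. Over all expressed genes 23.4% were lowest in WT 1 and 40.8% in WT 3. The summed share was 1.19, 1.71 and 1.64% for the atrial list and 2.40, 2.59 and 1.37% for the ventricular list, with means of 1.45% and 2.49% without WT 3. Whether the libraries held different amounts of atrial tissue was not tested. These ratios also rest on the gene lengths in the table: Myl7 is given 590 bases and Myl2 1950, and in reads Myl7 over Myl2 was 0.233.

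Nppb, which encodes B-type natriuretic peptide, a hormone of stretched heart muscle, had 769, 645 and 989.5 FPKM, and its ratio to Nppa was 0.479, 0.225 and 0.439. Both peptides are far above Nppc, the C-type form, at 0.143, 0.215 and 0.209 FPKM. For calcium handling all 27 listed genes passed 1 FPKM. Atp2a2, the calcium pump of the sarcoplasmic reticulum, was first (670.5, 533 and 653 FPKM), followed by S100a1 (383, 512 and 250.5 FPKM), Casq2, the calcium store of that reticulum (358, 356 and 280.3 FPKM), and Pln (262, 254 and 220.0 FPKM). The cardiac ryanodine receptor Ryr2 made up 96.2 ± 2.08% of its family. The T-type calcium channels Cacna1h and Cacna1g, which are prominent in fetal heart, reached 0.471, 0.745 and 0.575 and 0.454, 0.655 and 0.507 of the L-type channel Cacna1c, the adult channel of contraction. Of the FPKM of 5 connexins, Gja1 held 36.3 ± 6.02%, Gja4, a connexin of arterial endothelium, 25.5 ± 4.24%, and Gja5, of atrium and conduction system, 18.2 ± 3.10%. In reads Gja1 held 63.6%, Gja5 18.3% and Gja4 7.47%, so the order of Gja4 and Gja5 turned with the scale.

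**Figure D3:**
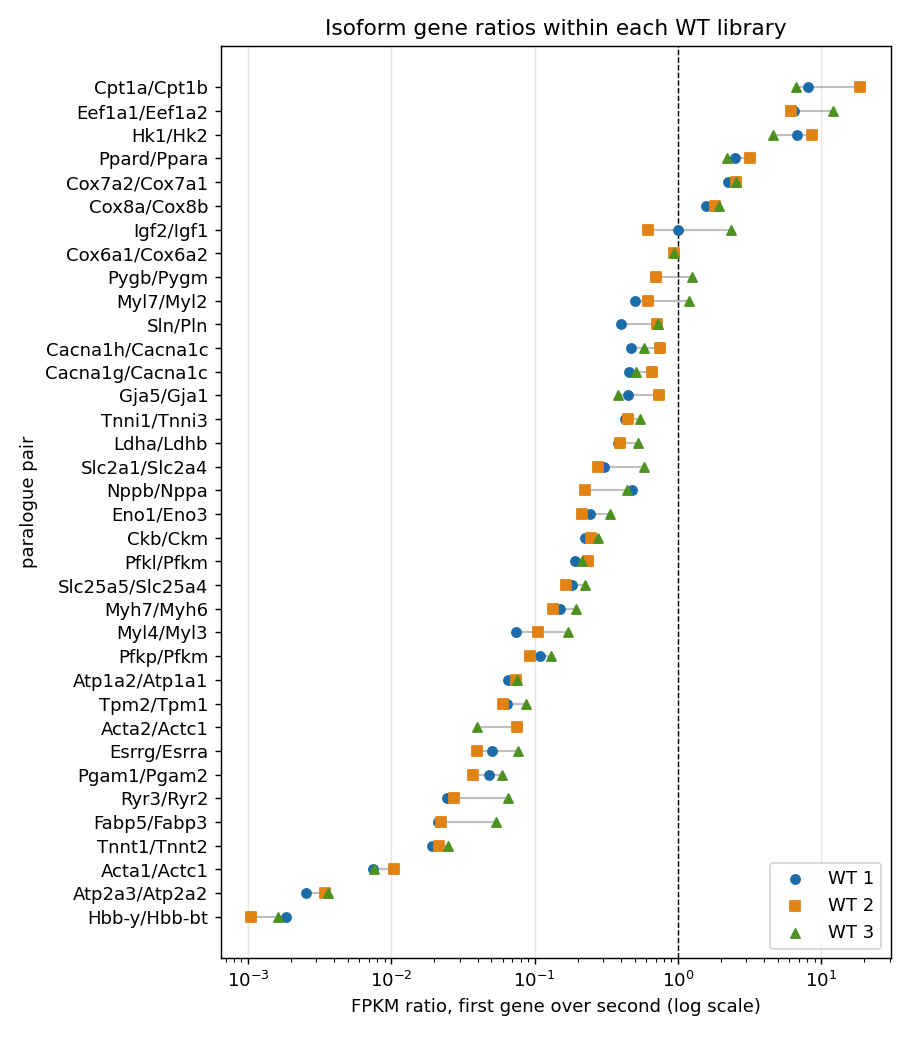
FPKM ratio of the first over the second gene of each pair (log scale) in each WT library, for pairs with a ratio above 0.001 in every library, ordered by the mean ratio, with a dashed line at 1. Most pairs lie left of the line, Myl7/Myl2, Pygb/Pygm and Igf2/Igf1 cross it, and Cox6a1/Cox6a2 has nearly the same ratio in all 3 libraries (0.939, 0.932 and 0.945).

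Across 39 pairs of paralogues, written with the fetal, ubiquitous or alternative form first, 30 had a ratio below 1 in every library, 6 had one above 1 in every library, and 3 crossed 1. The ratio varied by under 1.5-fold between the libraries in 17 pairs and by at least 2-fold in 10. A ratio within a library is free of the scaling of that library. With 3 libraries an exact two-sided sign-flip permutation test cannot go below p = 0.25, so the ratios are given with no test.

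In energy metabolism the muscle or heart form led in FPKM at the later steps of glycolysis, while the respiratory chain was mixed. The muscle phosphoglycerate mutase Pgam2 (874, 1199.7 and 565 FPKM) left the ubiquitous Pgam1 at 0.0482, 0.0370 and 0.0589 of its level. The muscle enolase Eno3 had 864, 1088 and 527 FPKM, and Eno1 was 0.264 ± 0.0645 of it. Ldhb, the lactate dehydrogenase of the adult heart, had 1061, 1215 and 689 FPKM, with Ldha at 0.384, 0.396 and 0.524 of it. In reads these leads were narrower on average, with a mean ratio of 0.113 for Pgam1/Pgam2, 0.817 for Eno1/Eno3 and 0.917 for Ldha/Ldhb. In WT 3 they turned for Eno1/Eno3 and Ldha/Ldhb, whose ratio in reads was above 1 there. Hk1, the hexokinase of most cells and of the fetal heart, stood above the insulin-responsive Hk2 in every library (6.82, 8.60 and 4.58-fold). The basal glucose transporter Slc2a1 was at 0.305, 0.278 and 0.584 of the insulin-responsive Slc2a4; without WT 3 the mean was 0.291. Glycogen phosphorylase was split between the brain form Pygb (127, 123 and 162 FPKM) and the muscle form Pygm (183, 174 and 129.5 FPKM), and Pygb was the higher one in WT 3 alone. Their mean ratio was 0.886 ± 0.318, and 0.702 without WT 3, but 1.32 in reads, so that the direction turned with the scale. The muscle creatine kinase Ckm exceeded Ckb in every library, with Ckb at 0.225, 0.247 and 0.276 of it.

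Among the respiratory subunits with a ubiquitous and a muscle form, Cox6a1 (1390.3, 1743 and 896 FPKM) and Cox6a2 (1481, 1869.9 and 948 FPKM) were nearly equal, at a ratio of 0.939 ± 0.00645. The ubiquitous form was the higher one for Cox7a2 over Cox7a1 (2.23, 2.52 and 2.53) and for Cox8a over Cox8b (1.58, 1.81 and 1.95). The nucleotide carrier went the other way, with the ubiquitous Slc25a5 at 0.183, 0.166 and 0.225 of Slc25a4. Cox4i1 held 98.9 ± 0.146% of its pair. All 87 expressed nuclear subunits of oxidative phosphorylation were lowest in WT 3 and 84 were highest in WT 2, against 40.8% and 39.3% of all expressed genes.

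Of 25 listed fatty acid oxidation genes 24 were expressed, led by the thiolase Acaa2 (637, 752 and 349 FPKM) and the long-chain dehydrogenase Acadl (473, 447 and 336 FPKM). Their summed share was 0.681, 0.652 and 0.438% (0.666% without WT 3), 21 of the 24 were lowest in WT 3, and their median deviation from the mean of each gene was 0.22, 0.33 and -0.55 on the log2(FPKM + 1) scale, against -0.01, 0.00 and 0.01 over all 12099 genes. The liver form Cpt1a of the enzyme that admits long-chain fatty acids to the mitochondrion exceeded the muscle form Cpt1b (8.08, 18.6 and 6.63-fold). The value of Cpt1b (1.75, 0.564 and 1.52 FPKM) is uncertain, since 78.6% of its 50-base words are shared with the overlapping gene Gm44502, which is listed at 0. In fatty acid uptake, Fabp3 held 91.6 ± 3.37% of 5 binding protein genes. The genes that the study follows were lower: Cd36 had 163, 149.6 and 125 FPKM, Fabp5 65.7, 76.8 and 69.1 FPKM, and the fatty acid receptor Ppard 3.26, 3.16 and 3.81 FPKM. Ppard exceeded Ppara, the form known to drive oxidation in the adult heart, by 2.50, 3.19 and 2.20-fold. Its partners Rxrb (24.1, 28.1 and 23.5 FPKM) and Rxra (13.0, 12.2 and 13.7 FPKM) were expressed, while Rxrg was under 1 FPKM in every library (0.949, 0.901 and 0.617 FPKM).

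Transcription factor genes took 1.58, 1.47 and 1.87% of the FPKM sum, and 464 of 722 expressed ones were highest in WT 3, against 43.2% of all expressed genes. The most abundant was Ybx1, a Y-box protein that binds RNA and DNA (362, 427 and 416 FPKM). The heart regulators followed closely: Hopx (205, 212 and 243 FPKM) and Nkx2-5 (182, 245 and 138 FPKM) came next in rank, with Hand2 (51.6, 56.5 and 53.2 FPKM) and Gata4 (54.9, 46.4 and 41.8 FPKM) among the first 12. Of 28 listed cardiac factors 26 were expressed. Mef2b (0.141, 0.319 and 0.505 FPKM) and the progenitor factor Isl1 (0.0250, 0.0424 and 0.0275 FPKM) were not. Hand2 made up 96.6 ± 0.370% of the pair with Hand1, and the alpha thyroid hormone receptor Thra 99.6 ± 0.170% of the pair with Thrb.

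Among lncRNA genes H19 was far above those that followed, which were 5430431A17Rik (77.5, 58.6 and 123 FPKM), Malat1, a nuclear RNA (65.4, 37.9 and 121 FPKM), Gm49130 (84.5, 59.3 and 68.5 FPKM) and Gm10076 (31.8, 64.1 and 68.0 FPKM). Gm49130 overlaps the end of Myh6 on the opposite strand, and with no strand setting given the reads of the overlap cannot be told apart. Of the 50-base words of Gm10076, 69.9% are shared, chiefly with the ribosomal protein gene Rpl41 (859, 1182 and 673 FPKM), so its level is uncertain. Malat1 was highest in WT 3 and lowest in WT 2. Igf2, the fetal growth factor imprinted beside H19, was listed at 4.28, 3.17 and 7.06 FPKM only, but 61.2% of its 50-base words are shared with Gm49394, an overlapping gene listed at 0, so its level is uncertain too.

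The introns of Myh6 and Myh7 hold the microRNA genes Mir208a and Mir208b, whose mature forms are known to act on the balance of the myosins. The 3p forms are shown from RefSeq, build GRCm38.p6, because they share the seed (bases 2 to 8, in capitals), and differ beyond it.
mmu-miR-208a-3p, chr14:54949072-54949093, minus strand: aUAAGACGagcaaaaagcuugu
mmu-miR-208b-3p, chr14:54975710-54975731, minus strand: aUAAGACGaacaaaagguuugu
The gene Mir208b was listed at 324, 185 and 265 FPKM and Mir208a at 53.7, 22.2 and 78.1 FPKM. The order was the opposite of that of the hosts, Myh7 at 504 FPKM and Myh6 at 3184 FPKM. These are reads over hairpins of 77 and 83 bases in poly-A libraries, so they are not levels of the mature microRNA.

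Cell cycle genes were expressed in all libraries. The median level was 10.2 FPKM over the 30 genes of the G2/M list, all expressed, beside 5.81 FPKM over all expressed genes. For the G1/S list it was 5.43 FPKM over the 24 expressed genes and 4.64 FPKM over all 27. All 30 genes of the G2/M list, which acts in mitosis, passed 1 FPKM, led by Cdc20, which switches on the ligase that starts anaphase (44.6, 58.2 and 56.9 FPKM), Ube2c (38.0, 47.4 and 55.3 FPKM) and the cyclin Ccnb2 (34.6, 43.3 and 51.1 FPKM). Their summed share was 0.0858, 0.0913 and 0.146% (0.0886% without WT 3), and 28 of the 30 were highest in WT 3, with a median deviation of -0.25, -0.15 and 0.41. The G1/S list did not follow: 24 of its 27 genes passed, led by Cdk4 (46.8, 58.6 and 39.3 FPKM). Its share was 0.0535, 0.0550 and 0.0570%, and 6 of the 24 were highest in WT 3. Of all expressed genes 43.2% were highest in WT 3, so the G1/S list lay below that share and the G2/M list above it. Among inhibitors of the cycle, Cdkn2d (44.7, 57.1 and 47.7 FPKM) and the imprinted Cdkn1c (43.0, 48.4 and 51.3 FPKM) led.

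Other lists also placed WT 3 at one end. Of 18 expressed immediate early genes, 15 were highest in WT 3, among them Ccn2 (55.2, 40.0 and 179 FPKM), Ccn1 (14.9, 14.6 and 47.0 FPKM) and Jun (17.7, 17.5 and 36.9 FPKM), with a median deviation of -0.14, -0.31 and 0.53, whereas Jund was highest in WT 2 (102, 132 and 88.4 FPKM). Ccn1 and Ccn2 encode matricellular proteins, and Jun a subunit of the AP-1 factor. Of 33 extracellular matrix genes, 26 were highest in WT 3, led in level by Sparc (368, 423 and 409 FPKM), Col1a1 (137, 141 and 159 FPKM) and Col4a1 (136, 123 and 167 FPKM). In the other direction stood the TCA cycle with 21 of 23 genes lowest in WT 3, the mitochondrial ribosomal proteins with 76 of 77 and the cytosolic ribosomal proteins with 75 of 81. Over all expressed genes 5221 (43.2%) were highest and 4940 (40.8%) lowest in WT 3.

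**Figure D4:**
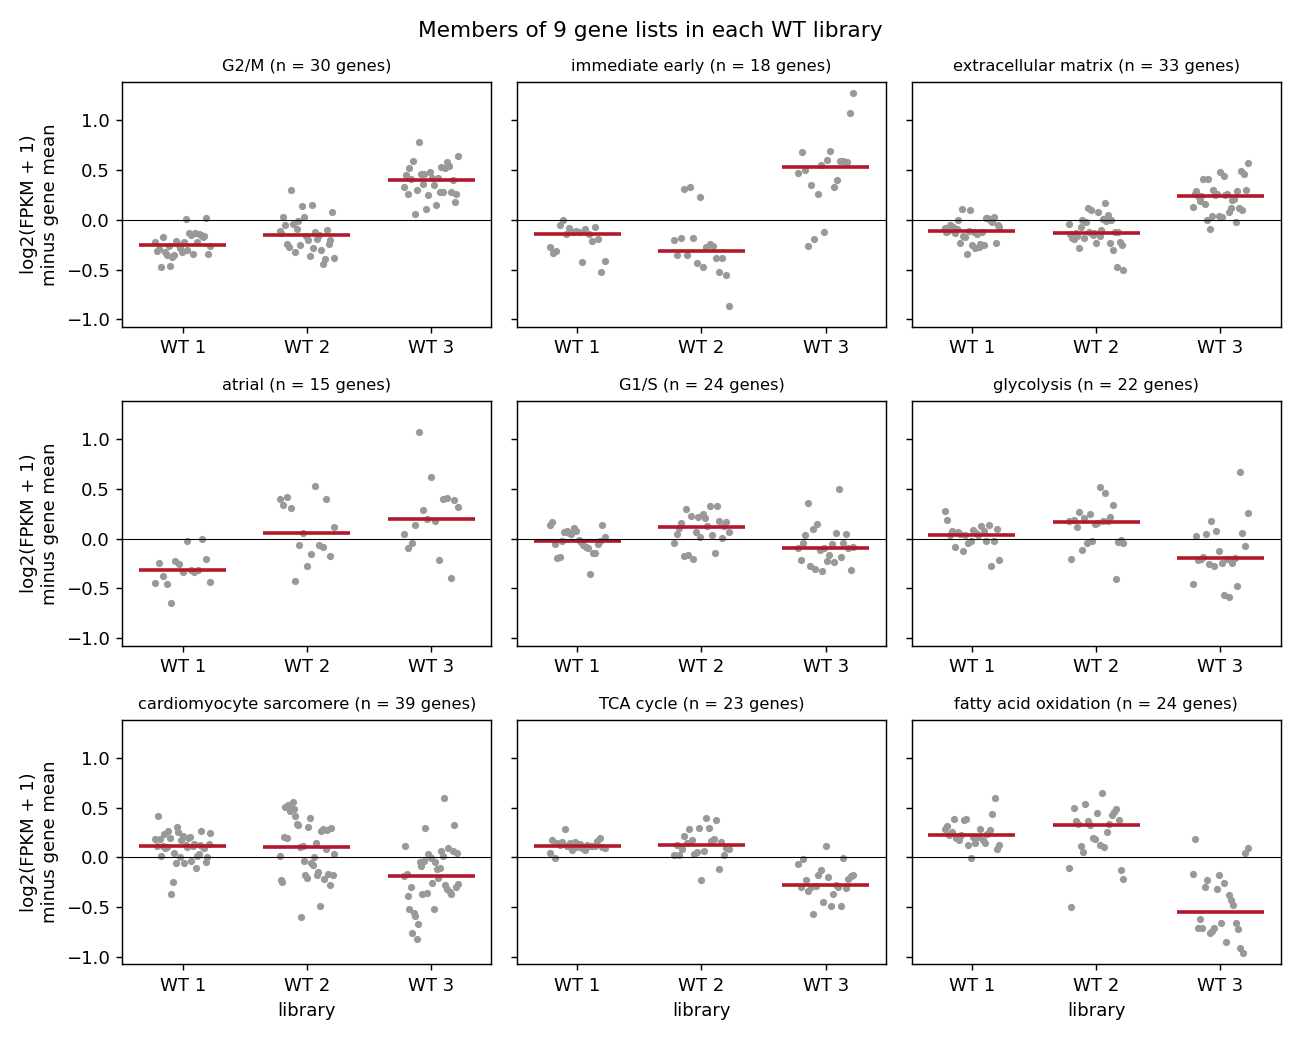
Each point is an expressed gene of the named list, as log2(FPKM + 1) minus the mean of that gene over the 3 WT libraries, and the red bar is the median of the list in that library. In WT 3 the medians are 0.41 for G2/M, 0.53 for immediate early genes and -0.55 for fatty acid oxidation.

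The differences between libraries also followed the length and level of the gene. The median deviation in WT 1, WT 2 and WT 3 was -0.01, 0.22 and -0.21 for the 1468 genes of 1 to 2 kb, and 0.00, -0.14 and 0.14 for the 1835 genes over 8 kb. For the 40 genes above 1000 FPKM it was 0.03, 0.31 and -0.30. Genes of cytosolic ribosomal proteins and of nuclear respiratory subunits also stood high in WT 2 and low in WT 3. The 13 mRNAs of the mitochondrial genome, with a median length of 0.784 kb, went the other way. Of them 11 were lowest in WT 2 and 10 highest in WT 3, against 35.8% and 43.2% of all expressed genes. Whether length or level accounts for the class differences was not tested. Within genes of 2 to 8 kb alone, the deviation of WT 3 was 0.38 for 22 G2/M genes and -0.55 for 18 fatty acid oxidation genes. It was -0.49 for 31 nuclear subunits and -0.29 for 35 cytosolic ribosomal protein genes, against 0.02 for all 7647 genes of that length.

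The spread between libraries was several times that of counting. The median SD of log2(FPKM + 1) was 0.21, against 0.053 from counting error alone, and 92.3% of genes lay above their own counting value. Without WT 3 the median SD was 0.12. The highest and lowest library differed by at least 1.5-fold in 3518 genes (29.1%) and by at least 2-fold in 821 (6.79%). WT 1 was the middle library for 7146 of the 12099 genes. Above 1000 FPKM the median SD was 0.37 although the SD from counting alone was 0.0065 there.

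**Figure D5:**
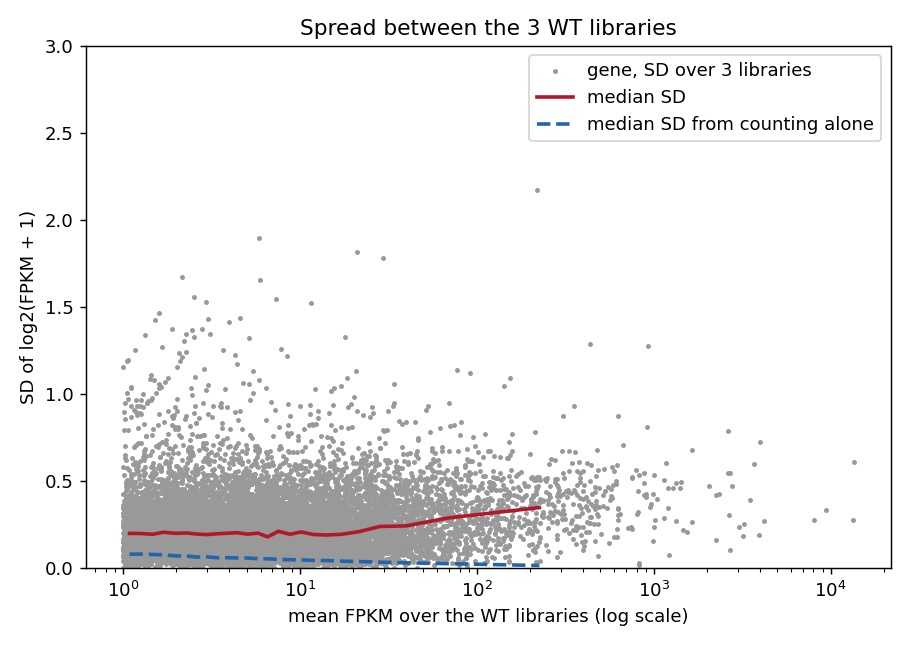
SD of log2(FPKM + 1) over the 3 WT libraries against mean FPKM (log scale), 1 grey point per expressed gene. The red line (median SD) stays near 0.2 up to about 10 FPKM and is higher for abundant genes, while the dashed blue line (SD from counting alone) is lower for abundant genes.

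The least variable protein-coding genes among the 200 most abundant were Idh2, the mitochondrial isocitrate dehydrogenase (828, 842 and 820.5 FPKM), Actn2 (826, 808 and 846 FPKM), Actb (272, 297 and 281 FPKM), Fhl2 (456, 489 and 503 FPKM) and Dstn (275, 299.6 and 314 FPKM). Idh2 varied little, although 21 of the 23 genes of its cycle were lowest in WT 3. The most variable, among genes of at least 10 FPKM, included Angptl4, a secreted inhibitor of lipoprotein lipase induced by fatty acids and fasting (38.3, 45.8 and 4.06 FPKM), the desaturase gene Scd4 (27.2, 22.6 and 4.28 FPKM), the transferrin receptor Tfrc (23.6, 26.0 and 5.96 FPKM) and Mtfp1, a mitochondrial fission protein (25.6, 30.2 and 6.43 FPKM). All 4 were lowest in WT 3, by a gap far wider than that between WT 1 and WT 2. Fbxl22, an F-box protein of the cardiac Z-disc, was lowest there too (159, 215 and 53.4 FPKM). Ccn2 and Clca3a1 (10.6, 7.57 and 33.2 FPKM) were highest there.

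Part of the list of variable genes is tied to shared sequence. Sumo2, a small protein modifier, was listed at 3.45, 3.67 and 27.5 FPKM, and Gm10241, a processed pseudogene all of whose 50-base words occur in Sumo2, at 98.7, 108 and 25.5 FPKM, so that WT 3 was highest for Sumo2 and lowest for Gm10241. The reads of both together numbered 691, 664 and 1009. Rps27a (108, 289 and 64.5 FPKM) shares 20.9% of its words with other genes. mt-Atp6, described above as sharing its sequence with a copy, is also on the list, as is Gm28438, the copy of mt-Nd3, which was listed at 569.5, 47.5 and 36.3 FPKM and was highest in WT 1. Without strand and multi-mapping settings, the part of read assignment in these values was not tested.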

How the data were processed

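The authors deposited FPKM values per gene, together with gene identifier, symbol, biotype, position and length, per the file headers. The labels' protocols give column extraction of RNA, poly-A capture and directional libraries made with dUTP. Per the submitters' processing notes, the tools were CASAVA, HISAT, HISAT2 and TopHat2, with no version stated. The sources used here do not give the counter, genome build, annotation or strand setting. Each deposited FPKM value times gene length was a whole multiple of a fixed step: 100% of values lay within 0.05 of a whole read, which gave the reads per library. The library size behind the step was 1.05, 0.986 and 1.11 times these reads in WT 1, WT 2 and WT 3. In WT 2 it was below the reads on genes, so it was not a plain total of reads. How it was set is not given. Levels compared between libraries rest on it, while shares and ratios within a library do not. No count model was run, since 1 group allows no contrast.

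Shares of the FPKM sum and of reads, ranks, ratios within a library and the SD of log2(FPKM + 1) were computed for the 3 WT libraries with Python 3.11.15 and pandas 2.3.3. Genes count as expressed at a mean of at least 1 FPKM; the counting SD comes from the recovered reads, and its code was tested on simulated data. Shared sequence is the percent of 50-base words of the GENCODE M21 transcripts of a gene that occur in another gene, and 740 of 741 named genes were matched. Sequences come from the RefSeq tables of GRCm38.p6. Named are the 30 most abundant genes, members of 62 families and 39 pairs, the leading 4 genes and near-absent markers of each of 43 lists, the most and least variable genes, the 5 leading lncRNA genes and the genes of the study's axis; other transcription factors and list members were named after their values were seen. Of 2 genes with the symbol Aldoa the more abundant was used, and Ahsp is not analysed here. Members and lists were chosen with earlier results of these data known. Alternatives were other thresholds, pseudocounts and denominators, reads in place of FPKM, and each library left out.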

Additional observations from a re-analysis of the deposited data

How the results depend on the processing

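No paired analysis was possible because only 1 group was used. A level of at least 0.1 or 5 FPKM left 19181 or 6569 expressed genes in place of 12099. The number of genes that hold 50% of expression was 511 by reads and 308 with mitochondrial and haemoglobin genes removed, against 173. Counted in reads, the mitochondrial genome held 6.49%, cytosolic ribosomal proteins 4.78%, nuclear subunits of oxidative phosphorylation 5.48% and the sarcomere 11.3%. With mitochondrial and haemoglobin genes removed, ribosomal proteins held 9.06%, nuclear subunits 9.84% and the sarcomere 11.5%. The ratio in reads was 0.205 for Myh7/Myh6, 0.823 for Tnni1/Tnni3 and 0.233 for Myl7/Myl2. The median SD was 0.26 with a pseudocount of 0.1, 0.14 with no filter, 0.23 above 10 FPKM and 0.26 with mitochondrial and haemoglobin genes removed and libraries rescaled. Leaving out a library gave 0.12 to 0.25, lowest without WT 3. Counted in reads, 51 of 68 class shares and 27 of 39 ratios moved by more than 1 SD. So did 45 of 63 shares with mitochondrial and haemoglobin genes removed, 8 of 68 with genes of at least 300 bases only, and 8 of 39 ratios with 1 FPKM added to both genes. Leaving out 1 of 3 libraries cannot move a mean by 1 SD, so that setting is no measure of stability for shares and ratios. For pairs with all libraries on 1 side of 1 in FPKM, the mean ratio stayed on that side in every setting. Single libraries could still cross 1 in reads: Eno1/Eno3 and Ldha/Ldhb lay above 1 in WT 3. In reads the mean turned to 1.32 for Pygb/Pygm (0.886 in FPKM) and to 0.766 for Igf2/Igf1 (1.33 in FPKM), pairs whose libraries lay on both sides. Depth limits little here for expressed genes: counting error was under the spread in 92.3% of them. Gene length in the deposited table sets every level, and 3 libraries set the precision of every SD.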
